A study of Mus musculus with 18 samples.

Results

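The Zfp genes of the mouse, most of them encoding zinc finger proteins, were examined in ED1SQ4 cells, a murine lung cancer line, treated with CYC065 or vehicle. A gene was taken when its symbol was Zfp followed by a number below 500 and when its counts summed to at least 1000 over all 18 columns of the count table. The rule took 126 of the 167 Zfp genes with such a number, out of 55450 rows in all. Of the 41 left out, 3 had no count in any column. Just inside the limit lay Zfp467 with 1059 counts and Zfp202 with 1084, and just outside it lay Zfp82 with 971 and Zfp2 with 934. The genes were thus chosen by their symbol and selected on their total count, so their abundance is a description and not a finding.

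ED1SQ4 cells derive from a lung cancer of cyclin E-transgenic mice. They were treated for 72 h with vehicle or with 0.5 µM CYC065, a cyclin-dependent kinase inhibitor with more activity on CDK2 than on CDK9. RNA came from unsorted cells or from cells stained with Vybrant DyeCycle Green and sorted by DNA content into a 2N and a 4N fraction, which gave 6 conditions: vehicle unsorted, CYC065 unsorted, vehicle 2N, vehicle 4N, CYC065 2N and CYC065 4N. A 4N gate holds polyploid cells together with diploid cells in G2 or mitosis, and the libraries cannot tell these apart. The line is a single one, without an untransformed counterpart here.

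Each condition had 3 columns that carry a single library number in their labels. Over genes with whole-number counts, the 3 columns of a condition differed by no more than sampling noise, with a chi-square per degree of freedom of 0.991 to 1.02, and over the Zfp genes it was 0.859 to 1.14. The 3 columns were therefore counted as 1 library, with 54750203 to 62795507 counts, and no p-value is used to call a difference between conditions. Every ratio below compares 1 library with another, and its error is counting error only, which leaves out the spread between cultures. Levels are relative to the other RNAs of a library. A general change in RNA per cell would not show in them, and higher or lower is meant in this relative sense. A gene was called when its ratio passed 2-fold. The row Gm26917 held 1.39% to 2.17% of counts in the sorted vehicle libraries and 5.69% to 10.6% in the other 4, and its part in the ratios was not tested beyond the scaling alternatives.

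Markers were checked against the lung cancer label. All 5 epithelial markers (Epcam, Cdh1, Krt8, Krt18, Krt19) stayed at or below 0.648 counts scaled to a common library size (CPM, counts per 1e+06), and their sum was 0.429 to 1.32 CPM. Of the 5 lung lineage markers, Nkx2-1, Sftpa1 and Scgb1a1 had no count and the sum did not exceed 0.0753 CPM. The 3 fibroblast markers Col1a1, Dcn and Pdgfra summed to 3114 to 4370 CPM with vehicle and to 4636 to 8096 CPM with CYC065. Ptprc and Cd3e were near 0, whereas the macrophage marker Cd68 was at 3.35 to 3.99 CPM with vehicle and at 11.2 to 24.5 CPM with CYC065. The defining epithelial and lung markers were thus at or near 0, against the label, and the part of these shifts in the values below was not tested.

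Most Zfp proteins carry C2H2 zinc fingers, short folds in which 2 cysteines and 2 histidines hold a zinc ion and which, in series, read DNA sequence. Many also carry a KRAB box, which binds Trim28 and, through it, the histone methyltransferase Setdb1 and thereby silences transposons, imprinted regions and genes. A few differ: Zfp36 (tristetraprolin) has CCCH fingers that bind AU-rich elements in mRNA and hasten its decay. The mRNAs of C2H2 genes are known as short-lived, and loss of CDK9 activity halts elongation and depletes such mRNAs within hours. No half-life was measured here, and the cells were harvested once, at 72 h.

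In the coding sequences of GENCODE M21, a pattern for the C2H2 finger matched at least 1 time in 122 of the 125 Zfp genes with a coding sequence, up to 41 times in Zfp142. The 3 without a match were Zfp36, Zfp330 and Zfp365, of which Zfp36 and Zfp330 matched a CCCH pattern. Zfp469 is listed as a noncoding RNA in this annotation. A KRAB pattern matched in 67 genes, with a median of 13 fingers, and not in 58, with a median of 7.5. The patterns are loose searches and can miss a diverged box. Fingers of 4 genes past 2-fold in all 3 comparisons with CYC065, and of Zfp52, are shown so that the repeat they share can be seen, with the codons of the zinc-binding cysteines and histidines in capitals. The 4 C2H2 stretches are the first finger of each gene that is followed by the classic linker, and Zfp52 is the chromosomal neighbour of Zfp53.
Zfp36 (CCCH finger): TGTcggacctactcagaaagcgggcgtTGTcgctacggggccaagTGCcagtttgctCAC
Zfp53: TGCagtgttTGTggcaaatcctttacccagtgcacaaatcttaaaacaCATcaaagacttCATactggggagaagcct
Zfp52: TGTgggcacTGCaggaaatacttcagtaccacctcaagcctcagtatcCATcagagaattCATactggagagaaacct
Zfp239: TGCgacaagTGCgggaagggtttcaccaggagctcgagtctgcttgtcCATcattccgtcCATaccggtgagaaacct
Zfp111: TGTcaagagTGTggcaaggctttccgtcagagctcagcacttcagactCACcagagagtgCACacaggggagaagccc

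The 78-base stretch of Zfp53 shared 48 bases (61.5%) with that of Zfp52 and 50 (64.1%) with that of Zfp111. Zfp239 shared 43 bases (55.1%) with Zfp53. These stretches differ at many bases and do not themselves show that reads are hard to place. Shared sequence was a limit for a part of the genes only. In 27 of the 126 genes the counts were fractional, which shows that RSEM divided reads between genes. Over 10% of their 50-base words were shared with another gene in 11 genes, and 52 genes shared none. The most shared were Zfp433, Zfp97 with 81.3%, Zfp59 and Zfp58 with 46.6%, and values of Zfp97, Zfp58, Zfp442 (32.1%) and Zfp345 (29.8%) are uncertain for that reason.

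The 250 bases before the RefSeq start (GRCm38.p6) of 2 genes that were higher and 2 that were lower with CYC065 in all 3 cell fractions are printed 5′ to 3′ on the gene's strand. For Zfp36 and Zfp111 this stretch lies inside the GENCODE M21 span of the gene. The bases before the upstream end of that span were not searched for these 2 genes. Capitals mark matches on either strand to the TATA box letters TATAAA, to the CCAAT box letters CCAAT, to the GC box letters GGGCGG, to the cyclic AMP response element TGACGTCA or to the AP-1 site TGACTCA.
Zfp36, chr7:28379229-28379478 (minus strand): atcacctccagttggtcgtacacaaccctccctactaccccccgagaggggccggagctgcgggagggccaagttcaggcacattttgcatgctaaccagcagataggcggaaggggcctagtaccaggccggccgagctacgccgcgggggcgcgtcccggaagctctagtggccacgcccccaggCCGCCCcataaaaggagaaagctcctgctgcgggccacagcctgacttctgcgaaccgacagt
Zfp53, chr17:21488738-21488987 (plus strand): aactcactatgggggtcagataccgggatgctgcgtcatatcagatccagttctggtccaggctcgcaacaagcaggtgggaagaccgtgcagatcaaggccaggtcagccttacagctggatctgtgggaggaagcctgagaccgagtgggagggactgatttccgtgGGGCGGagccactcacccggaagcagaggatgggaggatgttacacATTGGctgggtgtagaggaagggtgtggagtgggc
Zfp239, chr6:117861774-117862023 (plus strand): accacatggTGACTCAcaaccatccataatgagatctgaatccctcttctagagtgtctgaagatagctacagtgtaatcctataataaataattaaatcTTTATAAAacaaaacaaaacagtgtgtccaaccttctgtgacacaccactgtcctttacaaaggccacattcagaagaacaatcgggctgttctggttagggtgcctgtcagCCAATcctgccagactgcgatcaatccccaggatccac
Zfp111, chr7:24208150-24208399 (minus strand): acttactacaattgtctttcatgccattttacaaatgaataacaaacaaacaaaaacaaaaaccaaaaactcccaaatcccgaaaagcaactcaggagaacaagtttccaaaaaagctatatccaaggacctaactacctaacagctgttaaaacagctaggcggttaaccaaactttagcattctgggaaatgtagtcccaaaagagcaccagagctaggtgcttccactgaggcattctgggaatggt

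Zfp36 held 1 GC box, Zfp53 a GC box and, on the opposite strand, a CCAAT box, Zfp239 a CCAAT box, an AP-1 site and a TATA box on each strand in overlap, and Zfp111 none of these motifs. Over 32851 RefSeq promoters cut to the same length, 12.4% held the TATA box letters, 33.8% the CCAAT box, 32.7% the GC box, 1.55% the cyclic AMP response element and 4.46% the AP-1 site. Among the 102 Zfp genes matched by symbol, the CCAAT box was found in 48 (47.1%), the GC box in 39 (38.2%) and the TATA box in 9 (8.82%). Of the 13 matched genes past 2-fold higher with CYC065 in any fraction, 9 held a CCAAT box, 3 a GC box and 1 a TATA box. Of the 5 past 2-fold lower, 4 held a CCAAT box, 2 a GC box, 1 a TATA box and 1 an AP-1 site. The cyclic AMP response element was in 0 of both groups, and the AP-1 site in 0 of the higher genes. The groups are small, and a link between a motif and the ratios was not tested.

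Abundance differed widely among the Zfp genes. Over the 6 libraries and per kilobase of exon, the mean level had a median of 3.18 CPM per kb and ran from 0.586 in Zfp287 to 43.1 in Zfp106, an RNA-binding protein. Next came Zfp207 (BuGZ, a microtubule-binding partner of the checkpoint protein Bub3) at 24.3 CPM per kb, Zfp281, a GC-rich DNA binder, at 16.3, Zfp275 at 15.3, and the ubiquitin ligase Zfp91 at 14.8. The counting error of these levels is small, yet Zfp281 ranged from 61.4 to 102 CPM over the libraries and Zfp91 from 128 to 173, so the order of Zfp281, Zfp275 and Zfp91 depends on the library. Zfp42 (Rex1), a marker of pluripotent cells, had no count, and Zfp423 had 16 counts in all.

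The first question was how the Zfp genes stood after CYC065 in unsorted cells. Few passed 2-fold: 4 were higher (Zfp36, Zfp53, Zfp362, Zfp395), beside 12.8% of all genes tested, and 4 were lower (Zfp239, Zfp111, Zfp367, Zfp7), beside 12.4%. Together they are 6.35% of the 126, against 25.2% of the 14076 genes tested and 21.1% of the 11023 tested genes with a total of at least 1000. The median log2 ratio of CYC065 to vehicle was 0.08, with quartiles at -0.24 and 0.43. Above 0 lay 73 genes, a count without a share over all genes beside it. The sign of the median depended on the scaling, since it was -0.03 with library sizes alone. That scaling moved the median of all tested genes from 0.00 to -0.12. The Zfp median stood 0.09 above that of all tested genes under both scalings.

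In the 2N fraction the spread was wider. CYC065 libraries were past 2-fold higher in 11 Zfp genes and past 2-fold lower in 4, together 11.9% of the 126 beside 27.6% of all genes tested. The higher calls made up 8.73% of the Zfp genes beside a background of 16.5%, or 10.8% at a total of at least 1000, and the lower calls 3.17% beside 11.2%. The median log2 ratio was 0.28 (quartiles -0.26 and 0.65), beside 0.02 for all genes tested. With the 95% counting interval wholly past 2-fold, 7 were higher and 2 were lower, without a share over all genes under that rule to set beside them. The share past 2-fold was below the background, while the median lay above it. The gap of the medians depended on the filter on low counts: without it the Zfp median was 0.24 in 2N beside 0.23 for all genes, 0.33 beside 0.22 in 4N, and 0.04 beside 0.08 in unsorted cells.

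In the 4N fraction 15 Zfp genes were past 2-fold higher with CYC065 and 4 were past 2-fold lower, 15.1% beside 25.6% of all genes tested. The 95% counting interval was wholly past 2-fold in 8 higher genes and 1 lower one, again without a share over all genes under that rule. Higher calls came to 11.9% of the Zfp genes, beside 15.8% of all genes tested and 9.53% at a total of at least 1000. Lower calls came to 3.17%, beside 9.79% and 9.56%. The median was 0.37 (quartiles -0.18 and 0.78), beside a median of 0.05 for all genes tested. Above 0 lay 87 of the 126 genes, without a share over all genes beside this count. At 1.5-fold, 50 genes were higher and 11 were lower, or 39.7% and 8.73%, beside 26.6% and 20.9% of all genes tested.

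**Figure D1:**
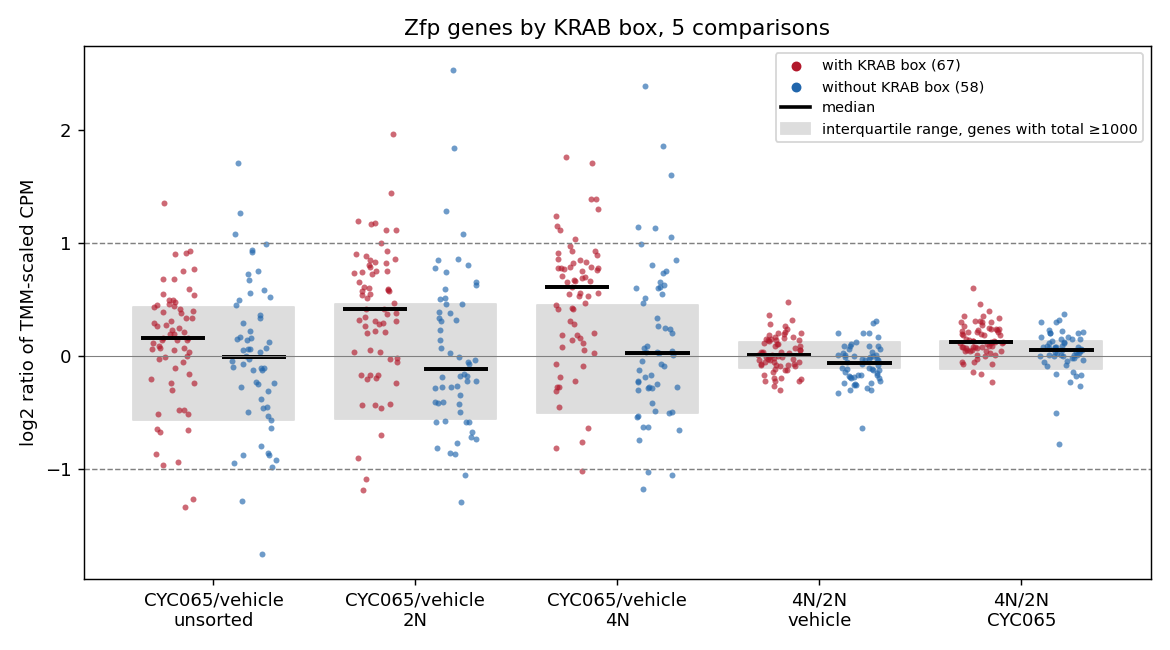
Log2 ratio of TMM-scaled CPM for each Zfp gene (points) in 5 comparisons of 2 libraries, split by KRAB box, with the median of each group as a black bar, the interquartile range of genes with a total of at least 1000 in grey and 2-fold as dashed lines. KRAB genes sit highest in the 4N comparison, with a median of 0.61 against 0.02 without the box, and both 4N/2N comparisons are narrow, with no gene past 2-fold.

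The 3 comparisons of CYC065 with vehicle share no library. Over the 126 genes their log2 ratios had a Pearson r of 0.96 between 2N and 4N, 0.82 between unsorted and 2N and 0.83 between unsorted and 4N. The other genes with a total of at least 1000 gave 0.94, 0.84 and 0.82, close to the Zfp values, and all points share their gene's length and base composition across libraries. Of the 11 genes higher in 2N, 9 (81.8%) were also higher in 4N, which is 60% of the 15 there, beside 74.8% and 85.2% over the other genes with that total. Of the 4 lower genes in each fraction, 3 (75%) were shared, beside 69.6% of the lower genes in 2N and 81.7% of those in 4N. In all, 24 genes passed 2-fold in at least 1 fraction, 17 higher and 7 lower, none in opposite directions, and 102 passed in no fraction. The 24 are 19% of the Zfp genes, beside 37.1% of all genes tested and 31.1% of the other genes with a total of at least 1000. Signs were positive in all 3 fractions for 67 genes (53.2%) and negative in all 3 for 33 (26.2%), beside 36.5% and 42% of those other genes.

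**Figure D2:**
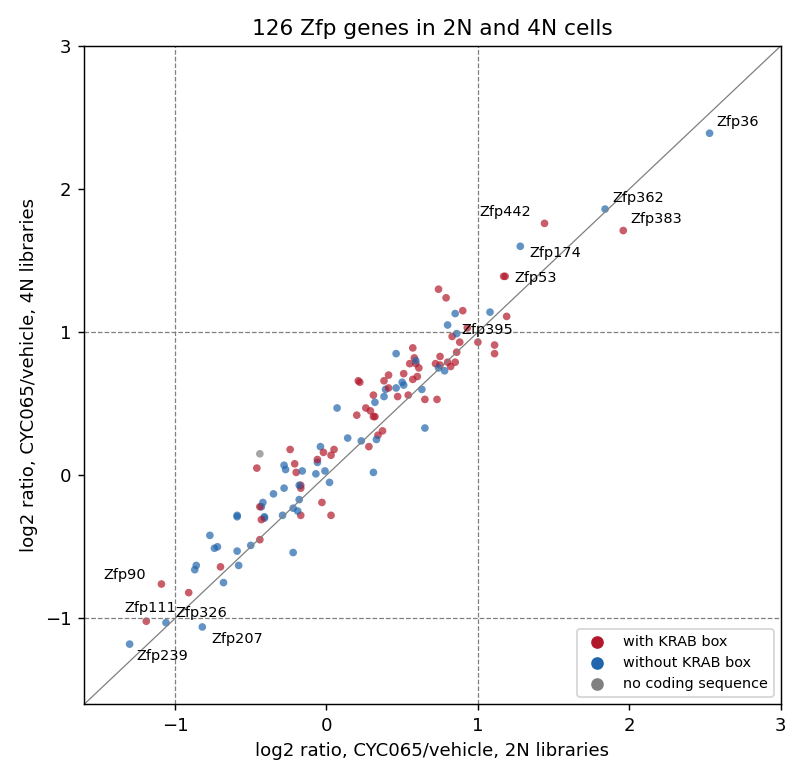
Log2 ratio of CYC065 to vehicle in the 2N libraries (x axis) against the 4N libraries (y axis) for the 126 Zfp genes, coloured by KRAB box, with the line of equality and dashed lines at 2-fold. The points follow the line (Pearson r of 0.96), with Zfp36 at the upper end (2.53 and 2.39) and Zfp239 at the lower end (-1.30 and -1.18).

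Zfp36 (ENSMUSG00000044786.6, chr7:28376784-28380253, mm10, minus strand) had the largest ratio in every fraction. Its level was 11.6 CPM in vehicle unsorted, 38.1 in CYC065 unsorted, 9.05 in vehicle 2N, 52.4 in CYC065 2N, 5.81 in vehicle 4N and 30.4 CPM in CYC065 4N. Each CYC065 library was thus above every vehicle library. The log2 ratio of CYC065 to vehicle was 1.71 ± 0.06 (counting SE) in unsorted cells, 2.53 ± 0.07 in 2N and 2.39 ± 0.08 in 4N. Zfp36 was also lower in 4N than in 2N cells, by a log2 ratio of -0.64 ± 0.10 with vehicle and -0.78 ± 0.04 with CYC065, the only Zfp gene past 1.5-fold in the vehicle comparison, where 9.12% of all genes tested were.

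Zfp362 (chr4:128773088-128806045) was at 6.40 CPM in vehicle unsorted, 3.59 in vehicle 2N and 3.75 in vehicle 4N. With CYC065 it was at 15.3, 12.9 and 13.6 CPM in the same order, above all vehicle libraries, with log2 ratios of 1.26 ± 0.09, 1.84 ± 0.11 and 1.86 ± 0.11. Zfp53, a KRAB gene with 16 matched fingers (chr17:21488998-21510473), was at 9.81, 9.31 and 9.53 CPM with vehicle and at 25.1, 21.1 and 25 CPM with CYC065. Its vehicle levels hardly varied, and the log2 ratios were 1.35, 1.18 and 1.39, each with an SE of 0.07. Zfp395 (chr14:65358389-65398930) was more abundant, at 48.4, 35.4 and 28.2 CPM with vehicle and 102, 74.9 and 62.3 CPM with CYC065. Its ratios of 1.08, 1.08 and 1.14 passed 2-fold narrowly. These 4 genes are 3.17% of the 126, beside 7.24% of 13533 genes tested that were past 2-fold higher in all 3 fractions.

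Zfp239 (chr6:117862100-117873291) and Zfp111 (chr7:24193947-24211443) were past 2-fold lower in all 3 fractions, 1.59% of the Zfp genes beside 5.67% of genes tested. Zfp239 stood at 9.67 CPM in vehicle unsorted, 9.26 in vehicle 2N and 9.86 in vehicle 4N, and at 2.85, 3.76 and 4.35 CPM with CYC065. The log2 ratios were -1.76 ± 0.13, -1.30 ± 0.12 and -1.18 ± 0.10. Zfp111, a KRAB gene whose counts were partly divided with relatives, stood at 38.6, 29.9 and 31.8 CPM with vehicle and at 15.3, 13.1 and 15.7 CPM with CYC065. Its ratios were -1.34, -1.19 and -1.02, each with an SE of 0.06. The 95% counting interval of both genes reached past the 2-fold line in 4N, from -1.39 to -0.97 for Zfp239 and from -1.13 to -0.91 for Zfp111.

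**Figure D3:**
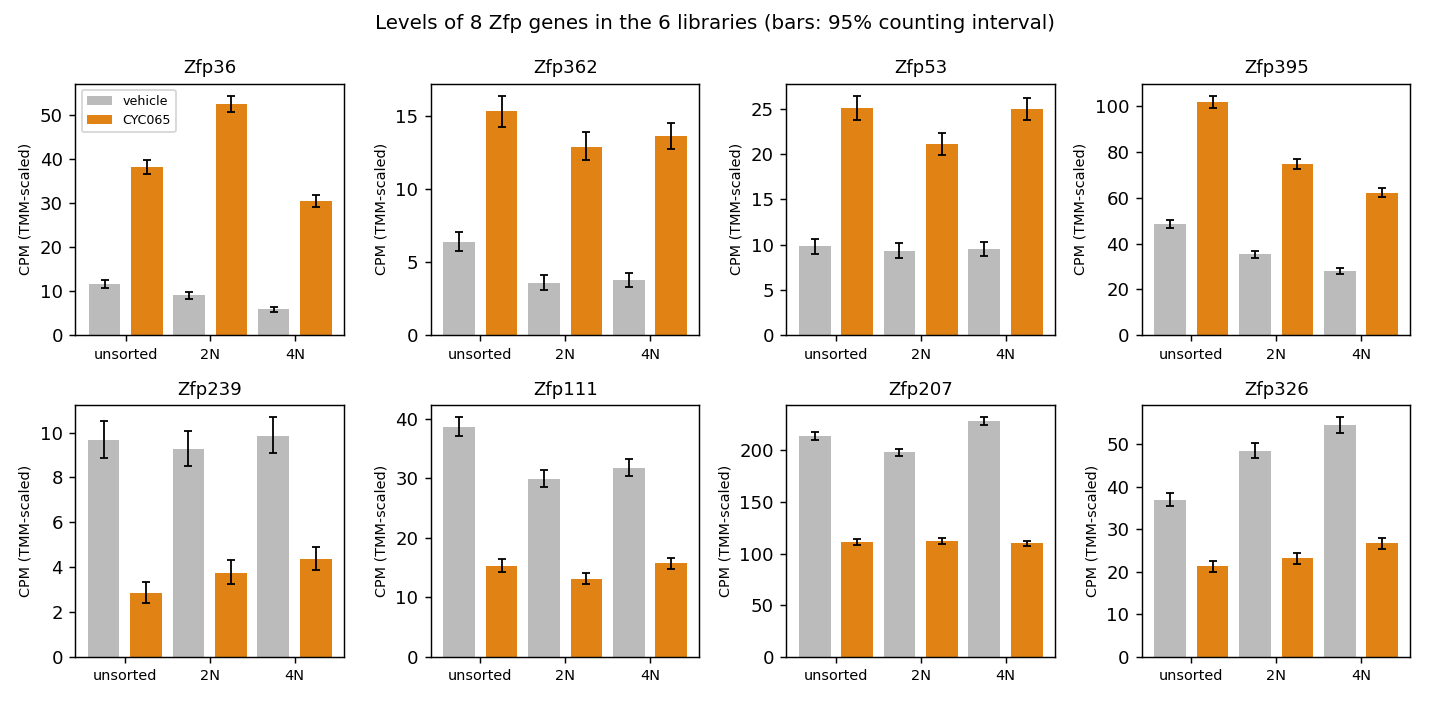
TMM-scaled CPM of 8 Zfp genes in each of the 6 libraries (grey, vehicle; orange, CYC065; 1 library a bar, with the 95% counting interval). In Zfp36, Zfp362, Zfp53 and Zfp395 every CYC065 bar stands above every vehicle bar, as for Zfp36 with 30.4 to 52.4 against 5.81 to 11.6 CPM, and in the other 4 genes every CYC065 bar is below every vehicle bar.

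Zfp207 and Zfp326 were lower without passing 2-fold everywhere. Zfp207 was at 214, 198 and 228 CPM in the unsorted, 2N and 4N vehicle libraries and at 111, 112 and 110 CPM with CYC065, with log2 ratios of -0.95, -0.82 and -1.06, each with an SE of 0.02. Zfp326, a subunit of the DBIRD complex that couples elongation with splicing, was at 37.0, 48.5 and 54.5 CPM with vehicle and at 21.3, 23.2 and 26.7 CPM with CYC065. Its ratios were -0.80, -1.06 and -1.03, with SEs from 0.04 to 0.05. Zfp90, a KRAB gene, had ratios of -0.97, -1.09 and -0.76, and Zfp7 had -1.27, -0.91 and -0.82, with 14.1% of its 50-base words shared with an overlapping or related gene model. The ratio of Zfp367 varied between fractions, a difference that was not tested: it was at 49.8 CPM in vehicle and 20.4 in CYC065 unsorted cells (-1.29 ± 0.05), but at 59.1 and 50.7 CPM in 2N (-0.22 ± 0.04) and at 51.7 and 35.5 CPM in 4N (-0.54 ± 0.04).

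Among the genes higher in the sorted fractions, Zfp383 was at 1.45 CPM in vehicle 2N and 1.81 in vehicle 4N and at 5.69 and 5.95 CPM with CYC065. Its log2 ratios were 1.96 ± 0.18 and 1.71 ± 0.16, and 0.93 ± 0.12 in unsorted cells, where vehicle was at 3.72 and CYC065 at 7.10 CPM. Zfp442 had ratios of 0.75, 1.44 and 1.76, and Zfp174 had 0.99, 1.28 and 1.60 in the unsorted, 2N and 4N fractions. The remaining genes past 2-fold higher in 2N or 4N were Zfp87, Zfp97, Zfp28, Zfp345, Zfp54, Zfp58, Zfp184, Zfp219, Zfp420 and Zfp40, named outside the naming rule to complete the count, and their larger ratio lay between 1.03 and 1.39. Of the 17 higher genes, only 4 were called in unsorted cells and none there alone. Among the 7 lower genes, 2 (Zfp367 and Zfp7) were called in unsorted cells alone. No share over all genes is given for these counts, so they cannot be read as a trait of the Zfp genes.

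Other genes with described functions stayed within 2-fold. The imprinting regulators Zfp57 and Zfp445, both KRAB genes, had ratios of -0.65, -0.44 and -0.45 and of 0.16, 0.03 and 0.14. Zfp217, a transcriptional regulator amplified in several cancers, was at 51.0, 39.7 and 32.2 CPM with vehicle and 71.9, 72.2 and 63.9 CPM with CYC065, with ratios of 0.49, 0.86 and 0.99, the last just under 2-fold. Zfp281 had 0.45, 0.65 and 0.33, and its relative Zfp148 had 0.05, -0.18 and -0.07. Zfp143, an activator that binds promoters, had -0.64, -0.68 and -0.75, with SEs of 0.06 to 0.07, lower in each fraction. Zfp410, an activator of Chd4, had 0.15, 0.33 and 0.25, while Chd4 itself had -0.26, -0.47 and -0.41.

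The abundant Zfp106 was at 449, 495 and 482 CPM with vehicle and at 411, 408 and 453 CPM with CYC065, with ratios of -0.13, -0.28 and -0.09. Zfp91 (-0.10, -0.43, -0.22), the SUMO ligase Zfp451 (-0.11, -0.42, -0.19), the chromatin regulator Zfp462 (0.06, -0.18, -0.17) and Zfp275 (-0.05, -0.16, 0.03) stayed within 1.5-fold in the unsorted, 2N and 4N comparisons. Zfp292 was higher, at 0.33, 0.50 and 0.65. Zfp335 had 0.03, -0.59 and -0.28, Zfp346, a binder of double-stranded RNA, 0.14, -0.19 and -0.25, and the KRAB gene Zfp110 -0.48, -0.17 and -0.09.

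Zfp genes with and without the KRAB box, which the rule did not use, had different medians and overlapping ranges. The 67 genes with the box had median log2 ratios of 0.16, 0.41 and 0.61 in the unsorted, 2N and 4N fractions, and the 58 without it had -0.01, -0.12 and 0.02. In 4N, 55 of 67 KRAB genes lay above 0, beside 31 of 58 others. The quartiles in 4N were 0.15 and 0.83 with the box and -0.29 and 0.60 without it. At 2-fold the difference was small, with 9 KRAB genes higher and 1 lower in 4N, beside 6 and 3 without the box. Abundance moved with the box: of the 42 least abundant genes 31 had it, and of the 42 most abundant 12. Among the least abundant, the 4N median was 0.76 with the box and 0.61 without it, and in unsorted cells the order was the other way, 0.14 and 0.36. Among the middle 42 the 4N median was 0.56 and -0.25, and among the most abundant 0.36 and -0.03. Restricted to genes with whole counts, the 4N medians were 0.47 for 47 KRAB genes and 0.03 for 51 others, and in 2N they were 0.31 and -0.06. No test was made of this difference, since genes are not replicates.

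By finger number, the 4N median was -0.09 for the 23 genes with 1 to 5 fingers, 0.18 for the 31 with 6 to 10 and 0.54 for the 68 with more than 10. In unsorted cells these medians were 0.05, 0.00 and 0.17, without a steady order, and the 3 genes with no C2H2 match had a 4N median of 0.60. The box and the number of fingers overlap in part. Among genes with more than 10 fingers the 4N median was 0.65 for 48 with the box and 0.14 for 20 without it, and among those with 6 to 10 it was 0.63 for 16 and -0.19 for 15. Only 3 genes with 1 to 5 fingers had the box (0.18), beside -0.16 for the 20 without it. These values are descriptions, and no test was made of them.

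Zinc finger genes outside the rule gave a wider frame. The 139 Zfp genes numbered 500 or more, at the same total, had medians of 0.23, 0.35 and 0.46, and in 4N 33 (23.7%) were past 2-fold higher and 2 were past 2-fold lower. The 118 genes outside the 126 with a KRAB box and at least 1 finger had medians of 0.29, 0.60 and 0.80, with 42 (35.6%) past 2-fold higher in 4N. The 182 genes outside the 126 with over 2 fingers and no box had 0.21, 0.25 and 0.19. The 35 Zbtb genes, whose proteins join fingers to a BTB domain, had 0.05, 0.21 and 0.16, with none past 2-fold higher in 4N. The 15 Zkscan and Zscan genes had 0.24, 0.58 and 0.54. The 118 and the 182 genes were not kept apart from the sets chosen by symbol, so these groups can overlap and are not independent comparisons.

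**Figure D4:**
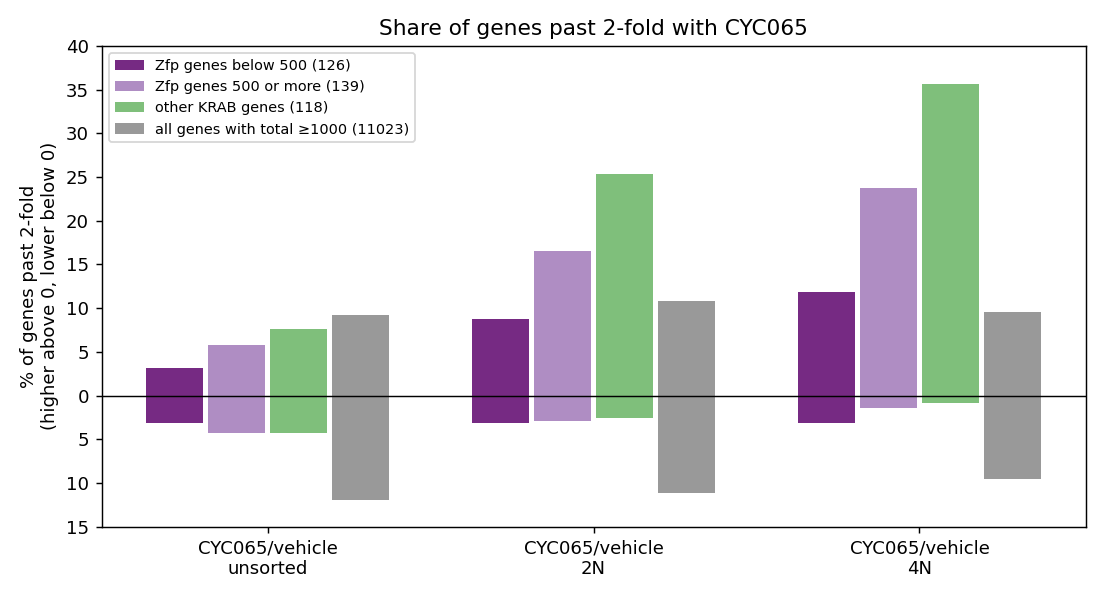
Percentage of genes past 2-fold higher (above 0) and lower (below 0) with CYC065 in unsorted, 2N and 4N cells, for the 126 Zfp genes, the Zfp genes numbered 500 or more, other KRAB genes and all genes with a total of at least 1000. In 4N the share higher is 11.9% in the 126 Zfp genes, 23.7% in the higher-numbered ones, 35.6% in other KRAB genes and 9.53% in all such genes. Other KRAB genes can include higher-numbered Zfp genes, and all such genes include the 126.

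Genes listed as KRAB corepressors, not all of them direct partners of the box, were mostly lower with CYC065. Of 14 such genes, 12 lay below 0 in each fraction, with medians of -0.58, -0.56 and -0.46. All genes with a total of at least 1000 had medians of -0.04, -0.05 and -0.04. The share above 0 was 14.3% of the 14 in each fraction, beside 47.4%, 47.2% and 47.9% of all genes with that total. Trim28 was at 219, 305 and 280 CPM in the unsorted, 2N and 4N vehicle libraries and at 171, 204 and 201 CPM with CYC065 (-0.35, -0.58 and -0.47). Setdb1 had -0.60, -0.79 and -0.68. Uhrf1 and Dnmt1, which maintain DNA methylation and are expressed mainly in cycling cells, were past 2-fold lower in each fraction, at -2.01, -1.71 and -1.10 and at -1.17, -1.45 and -1.01. Atf7ip, a Setdb1 partner, had 0.36, 1.04 and 0.89, and Chd3 had 0.45, 0.70 and 0.72.

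Relatives of Zfp36 and other short-lived mRNAs stood beside it as follows. Zfp36l1 had ratios of 1.77, 1.77 and 1.36 and Zfp36l2 had 0.81, 0.63 and 0.40, while Zfp36l3 had 20 counts and was not tested. The deadenylase subunits Cnot1, Cnot6, Cnot7 and Cnot8 did not pass 2-fold. Of 12 genes known for short-lived mRNA, 3 were past 2-fold higher in unsorted cells, 5 in 2N and 2 in 4N, and none was past 2-fold lower. These are 25%, 41.7% and 16.7% of the 12, beside 12.8%, 16.5% and 15.8% of all genes tested, so the 4N share is near the background. Fos had ratios of 3.93, 2.58 and 2.5, Egr1 1.56, 1.26 and 0.94, Mcl1 0.06, -0.11 and -0.31, and Klf10 -0.82, -0.51 and -0.93. Of these 12 genes, 11 were lower in 4N than in 2N cells with vehicle and 11 with CYC065, as Zfp36 was, beside a median log2 ratio of 0.00 for all genes tested in both. The sizes differed: Fos had -0.98 and -1.06 and Egr1 -0.86 and -1.18. Klf6 had only -0.03 and -0.01, Myc -0.06 and 0.05, and Mcl1 -0.08 and -0.28. Vehicle levels of Fos differed between unsorted (2.09 CPM) and 2N cells (18 CPM), and staining and sorting cannot be told apart from the fraction.

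The 4N and 2N fractions of one treatment were also compared, to ask whether Zfp genes differed with DNA content. No Zfp gene passed 2-fold with vehicle (beside 2.68% of 13358 genes tested) or with CYC065 (beside 3.54% of 14173). The column-based edgeR test, which compares libraries, gave an unadjusted p under 0.05 for 47 and 56 Zfp genes and an adjusted p under 0.05 for 37 and 50, none of them past 2-fold. No share over all genes is given beside these counts, so they cannot be read as a trait of the Zfp genes. DESeq2 calls, which also required 2-fold, were 0 in both. The median log2 ratio of 4N to 2N was -0.02 with vehicle and 0.09 with CYC065, beside 0.00 for all genes tested. With CYC065, 103 of the 126 genes lay above 0, and 94 did so with DESeq2 size factors. Among all genes with a total of at least 1000 the share above 0 was 51.7%. The largest ratio with CYC065 was that of the KRAB gene Zfp101, at 12.7 CPM in 2N and 19.3 CPM in 4N (0.60 ± 0.07), beside 11 and 12.2 CPM with vehicle (0.15 ± 0.08). Fewer cells with a transcript and less of it per cell cannot be told apart in such bulk libraries.

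The difference of the 4N/2N ratios between CYC065 and vehicle had a median of 0.12 over the Zfp genes, beside 0.01 over all 14474 genes tested. It lay above 0 in 96 genes, between 86 and 99 under the other scalings, and passed 2-fold in none, beside 7.06% of genes tested. This difference uses the same 4 libraries as the comparisons above and is no independent support for them. Only Zfp469 passed 1.5-fold, at 0.59 ± 0.09, beside 16.1% of genes tested.

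Position was examined last, since Zfp genes lie in arrays that arose by duplication. The 126 genes were spread over 19 chromosomes, 26 of them on chromosome 7 and 16 on chromosome 17. In all, 8 runs of at least 3 Zfp genes with gaps of at most 200 kb between neighbours held 35 genes. Ratios varied within a run, to different degrees. In 4N the runs on chromosomes 6 (0.18 to 0.61) and 9 (0.16 to 0.78) lay wholly above 0. The run on chromosome 18 (-0.5 to -0.23) lay wholly below 0, and the runs on chromosome 7 held both signs. Whether neighbours differ less than other Zfp genes was not tested. In the 346-kb run at chr17:21423227-21769342, Zfp53 had 1.35 in unsorted cells beside 0.27 for Zfp51, 0.33 for Zfp52, -0.24 for Zfp54 and -0.66 for Zfp229. In 4N the same 5 genes ran from 0.11 (Zfp229) to 1.39 (Zfp53). In the run of 6 at chr7:24081924-24301232, Zfp111 had -1.02 in 4N while Zfp61 had 0.78 and Zfp235 had 0.76. In the run of 9 at chr7:29768552-30169750 the 4N ratios ran from -0.29 (Zfp146) to 1.71 (Zfp383). The 3 genes of a run on chromosome 13, Zfp58, Zfp87 and Zfp65, were all higher in 4N, at 1.30, 1.39 and 0.93, and all 3 have divided counts.

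**Figure D5:**
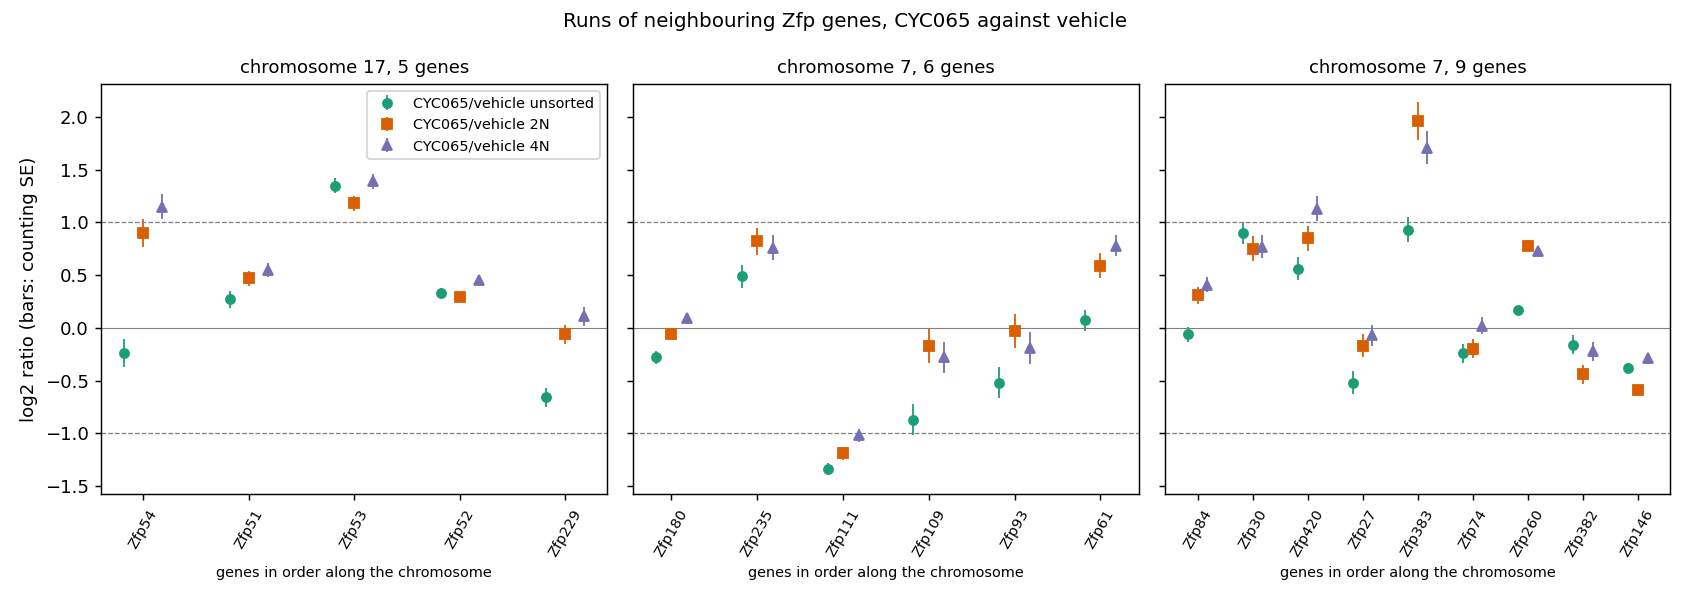
Log2 ratio of CYC065 to vehicle with its counting SE for the Zfp genes of the 3 runs of at least 5 neighbours, in order along the chromosome, in unsorted (circles), 2N (squares) and 4N (triangles) cells, with dashed lines at 2-fold. Some neighbours lie far apart, as Zfp53 (1.39 in 4N) and Zfp52 (0.45) do, and others lie close, as Zfp109 (-0.28) and Zfp93 (-0.19) do.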

How the data were processed

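ED1SQ4 cells were profiled by stranded total RNA sequencing after ribosomal RNA depletion in 6 conditions with 3 columns each. Adapters were removed by the authors (Cutadapt 1.18), who ran STAR 2.7.0f in 2-pass mode on mm10 and deposited RSEM expected counts per gene of GENCODE M21, neither normalized nor filtered. The RSEM release was 1.3.1 per the submitters' processing notes, and the methods name another. Use of strand in counting is not given in the sources used here, so overlapping and antisense genes cannot be told apart.

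Members and gene lists were chosen with earlier results of these data known. The genes named are the members furthest past 2-fold in each comparison (up to 5 a direction, at least 100 counts in the higher library), those past it in all 3 CYC065 comparisons, the 8 most abundant, a list with known roles and those next to the limit of 1000 counts. Zfp101, Zfp365, Zfp469, Zfp287 and the neighbours in runs were named after their values were seen.

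Columns were summed to 1 library a condition (54750203 to 62795507 counts). A single TMM normalization over 18 columns set the scale (edgeR 4.0.16, R 4.3.3; factors 0.913 to 1.057). Genes with at least 30 counts in a library compared were tested, and all 126 members passed. Log2 ratios used a prior count of 0.5. The SE and the 95% interval (exact, Clopper-Pearson) cover counting error only, since each condition is 1 library. Reads without molecular identifiers are not independent molecules, so even the counting error can be too small. The labels do not say that columns came from separate cultures, so the edgeR and DESeq2 1.42.0 tests on columns, for which the counts were rounded, compare libraries and were kept as alternatives. Same-numbered columns of different conditions had deviations correlated from -0.227 to 0.186, and differently numbered ones from -0.143 to 0.28, so numbers did not pair samples. Calls and intervals were tested on simulated counts. Fingers and KRAB boxes were patterns in translated GENCODE M21 coding sequences, used for counts only; the plan had named RefSeq proteins, which were not used here. Shared sequence was the share of a gene's 50-base words found in another gene's transcripts. Promoters are RefSeq's.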

Additional observations from a re-analysis of the deposited data

Results flagged for a closer look

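Zfp365, which matched neither finger pattern, went in opposite directions in unsorted and sorted cells, and this difference was not tested. It was at 34.8 CPM in vehicle and 18.4 CPM in CYC065 unsorted cells, at 15.1 and 23.4 CPM in 2N and at 17.3 and 26.2 CPM in 4N. The log2 ratios of CYC065 to vehicle were -0.92 in unsorted cells, 0.63 in 2N and 0.60 in 4N, each with a counting SE of 0.06. With vehicle the unsorted level lay above both sorted levels, and with CYC065 it lay below both.

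Zfp469 differed in its 4N/2N ratio between treatments. It was at 20.5 CPM in 2N and 14.3 CPM in 4N with vehicle, and at 15.1 and 15.8 CPM with CYC065, a difference of the log2 ratios of 0.59 ± 0.09. The edgeR quasi-likelihood test of that difference on the columns gave an adjusted p of 9.1e-06, which compares these libraries and not cultures. In that test 35 of the 126 Zfp genes had an adjusted p under 0.05, and some had a smaller one, as Zfp106 did with 3.7e-08. The p-value thus does not set Zfp469 apart, which was named for the size of its difference.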

How the results depend on the processing

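With 1 library a condition, no result has a culture replicate, and counting error limits the ratios: the median SE of a Zfp gene was 0.07 and the largest 0.18 in the comparisons with CYC065. The counts of genes past 2-fold (8 in unsorted, 15 in 2N and 19 in 4N cells) depended on the fold. At 1.5-fold they were 36, 54 and 61, and 1, 2 and 1 in the 4N/2N comparisons with vehicle, with CYC065 and in their difference. With the 95% counting interval wholly past 2-fold they were 8 in unsorted cells, 9 in 2N and 9 in 4N. Shares over all genes are not given here under these rules, so the counts show only how the Zfp calls depend on the threshold. Library sizes alone turned the unsorted median from 0.08 to -0.03, and the 99 genes with whole counts had a 4N median of 0.25 in place of 0.37. The other alternatives moved the median of the 126 genes by less than the median SE in each comparison, but the median of all genes was higher without the filter on low counts, as given with the 2N result. Without 1 of the 3 columns the counts were 10 to 12, 14 to 17 and 18 to 20, and the 4N median 0.33 to 0.39. The edgeR fit with the replicate block called 8, 15, 19, 0, 0 and 0 members past 2-fold, the same counts, and it changed no other call. Leaving out the lower fold, which cannot end a call, 404 of 414 alternatives of the 30 named ratios past 2-fold kept the call, 10 lost it and none changed sign. These 30 were named for being furthest past 2-fold or past it in all 3 comparisons with CYC065, and the alternatives reuse the same libraries. The tally was thus largely set by that choice and does not cover the other calls. The lost calls were those of Zfp395 (unsorted), Zfp90 (2N), Zfp326 (2N and 4N) and Zfp207, Zfp239 and Zfp111 (4N). With library sizes alone these were 0.96 for Zfp395 and -0.99, -0.97 and -0.96 for Zfp207, Zfp326 and Zfp111 in 4N. Apart from the fold itself, the cause was not tested.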
